A study of Drosophila melanogaster with 26 samples.

Results

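The Imd and Toll pathways are the main NF-kappaB signalling routes of Drosophila innate immunity, and 10 of their genes were followed here through RNA-seq of 26 samples from S2 and Kc cells. The genes were PGRP-LC, PGRP-LB, imd, Fadd, Dredd and Rel of the Imd pathway and Tl, cact, dl and Dif of the Toll pathway. They were chosen by name as the signalling core of both pathways, with earlier results of these data known. They were matched by symbol to the gene identifiers of the count tables, where all 10 were found among 17489 genes. All 10 had reads in every sample, so all entered every test and none was lost to the filter on low counts.

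In the Imd pathway, peptidoglycan of Gram-negative bacteria binds the membrane receptor PGRP-LC, which signals through the adaptors imd and Fadd to the caspase Dredd, and Dredd cleaves the NF-kappaB precursor Rel so that its active part enters the nucleus. In the Toll pathway, the processed cytokine spz binds the receptor Tl, and the signal ends with the destruction of the inhibitor cact, which otherwise holds the NF-kappaB factors dl and Dif in the cytoplasm. S2 and Kc cells are embryonic lines with features of hemocytes, the blood cells of the fly.

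The study asked how transcription changes when cells lose the kinase JIL-1, which phosphorylates histone H3 in interphase, or its partner protein JASPer. S2 cells (male) and Kc cells (female) were treated with dsRNA against jasper, against jil-1 or with control dsRNA, at 10 µg/mL for 3 days and then again for 4 days. There were 4 jasper RNAi, 5 jil-1 RNAi and 5 control samples of S2 cells, in 3 batches, and 4 samples of each kind of Kc cells, in 2 batches. The third S2 batch held 1 jil-1 RNAi and 1 control sample, numbered 11, and no jasper RNAi sample. The study's methods list 2 dsRNAs for each target, and the sample titles do not say which of them was used. The labels name no immune stimulus. Both lines are single established lines, and the labels do not say whether replicates came from separate cultures, so that p-values measure only the spread between these samples, which may be technical. In such bulk samples, fewer cells of a type and less RNA per cell cannot be told apart.

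Between 2513223 and 17648358 reads per sample were assigned to the sense strand of genes, and levels are given as CPM, read counts scaled by library size over all samples. Of the 8 hemocyte genes used as a check, all were detected in both lines, with summed levels of 2459 to 7121 CPM in S2 samples and 1466 to 2899 CPM in Kc samples. Reads on the targeted genes could not be used to check the knock-down. The study checked it by western blot, where either RNAi depleted JIL-1 protein to the same level in both lines. Reads on JASPer ran from 60.0 to 1653 CPM on the sense strand and from 133 to 1262 CPM on the opposite strand in S2 jasper RNAi samples, against at most 163 CPM and 10.6 CPM in S2 control samples. JIL-1 likewise had 112 to 402 CPM on the opposite strand in S2 jil-1 RNAi samples, against 3.03 to 13.2 CPM in S2 control samples. Sense reads on JASPer thus lay below the control in some knock-down samples and far above it in others, and where the additional reads came from was not tested. A pair of Kc libraries stood apart: jil-1 RNAi replicate 1 had 102 reads and jasper RNAi replicate 4 had 107 reads on l(2)gl, a gene with 1857 to 8583 reads in S2 libraries and 0 to 6 reads in the other Kc libraries. The first also had 31.8 CPM of the noncoding RNA roX1, which is at 0.581 to 27.0 CPM in S2 samples, and 4.46 CPM of roX2. The second had 20.3 CPM of roX2, which is at 534 CPM or more in S2 cells. Kc results were therefore also computed without these libraries.

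Upon jasper RNAi in S2 cells, the transcripts of Fadd, Rel, Tl and Dredd fell and those of PGRP-LC rose, while PGRP-LB, imd, cact, dl and Dif did not pass the test. Thus 1 of 10 genes was higher and 4 of 10 were lower, where 20.3% of the 8465 genes tested were called in either direction, 8.45% as higher and 11.9% as lower. The test was edgeR's quasi-likelihood test with batch as a block and Benjamini-Hochberg adjustment over all genes at 0.05. The median log2 fold-change was -0.06 over the 10 genes and 0.01 over all genes tested.

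PGRP-LC (3L:9338810-9348336, plus strand, in coordinates of genome release 6), the receptor at the head of the Imd pathway, had 28.5, 25.1, 17.6 and 16.1 CPM in S2 jasper RNAi samples 4, 5, 8 and 9. S2 control samples 4, 5, 8, 9 and 11 had 16.0, 21.2, 13.9, 13.5 and 18.7 CPM. The groups overlapped, and samples of the first batch were higher than those of the second in both, but each jasper RNAi sample was above the control sample of its own number. Samples of one number share a batch, and no pairing beyond the batch was shown. The log2 fold-change was 0.41 ± 0.10 (SE, adjusted p = 0.0084), with 0.53 within the first batch and 0.29 within the second. The call was lost without the batch block (0.39 ± 0.19, adjusted p = 0.22) and without jasper RNAi samples 4 and 8 (0.34 ± 0.12, adjusted p = 0.078).

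Fadd (3R:22034455-22035617, plus strand), the adaptor that joins imd to Dredd, had 21.1, 21.3, 24.8 and 20.2 CPM in the S2 jasper RNAi samples, against 29.2, 27.3, 32.1, 30.8 and 32.9 CPM in S2 control samples. Every jasper RNAi sample lay below every control sample. Fadd fell by 0.45 ± 0.07 on the log2 scale (SE, adjusted p = 0.00041), which was the largest decrease among the 10 genes.

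Dredd (X:633622-635545, minus strand), the caspase that cleaves imd and Rel and the only X-linked gene of the 10, had 19.5, 22.3, 22.5 and 24.5 CPM upon jasper RNAi and 26.6, 22.1, 29.7, 25.7 and 32.9 CPM in control samples. The study reported lower expression across X-linked genes upon either RNAi in S2 but not in Kc cells. The part of this in the values of Dredd was not tested. The groups overlapped through control sample 5, and 3 of 4 same-numbered pairs were lower. The log2 differences were -0.44 and -0.40 in pairs 4 and 8, against 0.01 and -0.07 in pairs 5 and 9. The fitted log2 fold-change of -0.29 ± 0.08 (SE, adjusted p = 0.021) was the least stable of the calls. It was lost without any one of control samples 4 and 8 and jasper RNAi samples 4 and 8 (adjusted p from 0.058 to 0.071), and without the batch block (adjusted p = 0.069). Without jasper RNAi samples 4 and 8 together the log2 fold-change was -0.22 ± 0.10 (adjusted p = 0.17).

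Rel (3R:9044183-9047977, minus strand), the NF-kappaB factor of the Imd pathway, had 189, 190.4, 208 and 215 CPM in S2 jasper RNAi samples, against 249, 225, 296, 284 and 343 CPM in S2 control samples. The highest jasper RNAi sample was thus below the lowest control sample. Rel fell by 0.39 ± 0.05 on the log2 scale (SE, adjusted p = 6.3e-05), with -0.32 within the first batch and -0.46 within the second.

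Tl (3R:26799041-26842403, plus strand), the receptor of the Toll pathway, had 283, 281, 230.2 and 235 CPM upon jasper RNAi, against 336, 318, 313, 317 and 314 CPM in control samples. These groups did not overlap either, and within the jasper RNAi group the first batch was above the second. Tl fell by 0.31 ± 0.05 on the log2 scale (SE, adjusted p = 0.00039). Fadd, Rel and Tl were the 3 members with no overlap between groups, a feature of 12.9% of all genes tested in this comparison.

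The remaining Toll genes and 2 Imd genes did not pass the test. The inhibitor cact (2L:16313036-16326207, minus strand) had a log2 difference of 0.03 ± 0.04, and its 95% interval reached from -0.05 to 0.12. For the NF-kappaB factors dl (2L:17436830-17450364, minus strand) and Dif (2L:17413248-17433161, minus strand) the differences were -0.01 ± 0.05 and 0.02 ± 0.04. The adaptor imd (2R:18409796-18413599, minus strand) averaged 67.4 ± 0.941 CPM in jasper RNAi samples and 64.3 ± 5.08 CPM in control samples (SD, n = 4 and 5), with a log2 difference of 0.09 and a 95% interval of -0.02 to 0.20. PGRP-LB (3R:11452849-11460552, minus strand), an amidase that cleaves peptidoglycan and so limits Imd signalling, rested on 11 to 113 reads per S2 sample, and its interval of -0.52 to 0.30 was the widest.

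**Figure D1:**
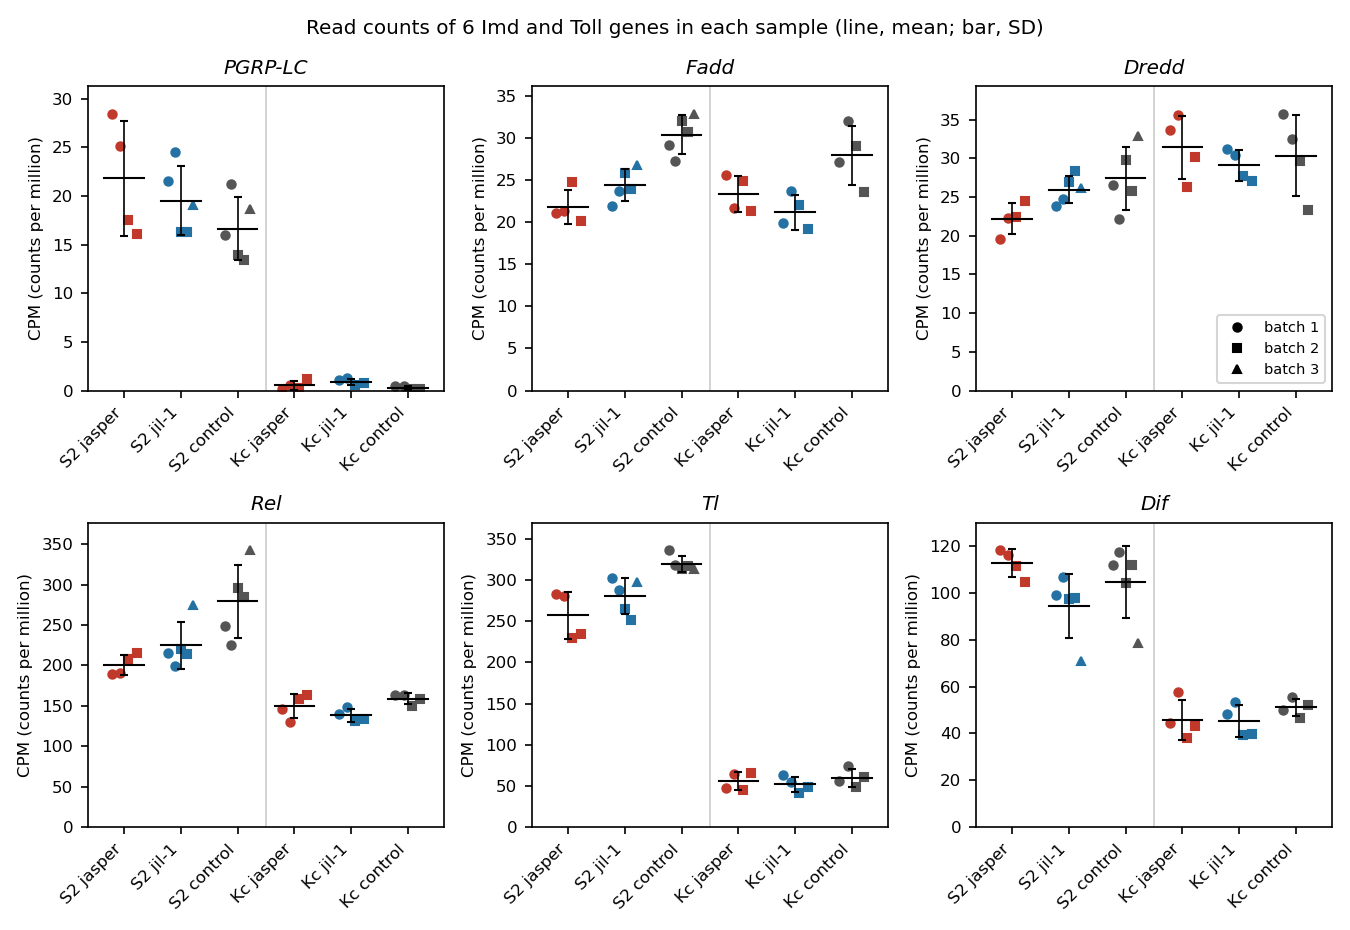
Normalised read counts (CPM, vertical axes from 0) of PGRP-LC, Fadd, Dredd, Rel, Tl and Dif in each sample of the 6 groups. Points are samples, with the symbol giving the batch, black lines are group means and bars are SD. In S2 cells every jasper RNAi point lies below every control point for Fadd, Rel and Tl, and in Kc cells PGRP-LC is below 1.3 CPM throughout.

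Upon jil-1 RNAi in S2 cells, Fadd, Rel, Tl and Dif fell, and none of the 10 genes rose. Thus 0 of 10 genes were called higher by edgeR and by DESeq2, PGRP-LC alone being higher at an unadjusted p under 0.05, and 4 of 10 were called lower. Of all genes tested, 9.12% were called higher, 12.3% lower and 21.4% in either direction. Fadd, Rel and Tl were the 3 members lower in both S2 knock-downs. Both comparisons use the same control samples, so they are not independent of each other. Over the 10 genes the median log2 fold-change was -0.13, against 0.0034 over all genes.

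Fadd had 21.9, 23.7, 25.8, 24.0 and 26.8 CPM in S2 jil-1 RNAi samples 4, 5, 8, 9 and 11, all below the lowest control sample at 27.3 CPM. It fell by 0.34 ± 0.07 on the log2 scale (SE, adjusted p = 0.0017). Within the 3 batches the difference was -0.31, -0.33 and -0.29. Rel had 216, 199, 221, 214 and 275 CPM, and it fell by 0.32 ± 0.05 (SE, adjusted p = 0.00021). Its groups overlapped only because sample 11 was high in both, at 275 CPM upon jil-1 RNAi and 343 CPM in the control, and all 5 pairs were lower. Tl had 302, 288, 265, 252 and 297 CPM upon jil-1 RNAi, below all control samples, and fell by 0.20 ± 0.05 (SE, adjusted p = 0.0061). Fadd and Tl were the 2 members with no overlap, where 7.06% of all genes had none.

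Dif had 99.1, 107, 97.5, 97.9 and 70.9 CPM upon jil-1 RNAi, against 112, 117, 104, 112 and 78.7 CPM in control samples. The groups overlapped, and the third batch was low in both, but all 5 pairs were lower and the 3 batches gave -0.15, -0.15 and -0.15. Dif fell by 0.15 ± 0.04 on the log2 scale (SE, adjusted p = 0.012), the smallest change called among the members. The calls of Rel, Tl and Dif were lost without the batch block (adjusted p = 0.087, 0.13 and 0.43), while that of Fadd was kept, and the call of Dif was also lost without a filter on low counts (adjusted p = 0.062). PGRP-LC had 21.5, 24.5, 16.3, 16.3 and 19.0 CPM in jil-1 RNAi samples and was above its same-numbered control in 5 of 5 pairs, with a log2 difference of 0.23 ± 0.09 that did not pass the test (adjusted p = 0.084). Dredd differed by -0.11 ± 0.07, PGRP-LB by -0.19 ± 0.20, imd by 0.04 ± 0.05 and dl by -0.04 ± 0.04, and the 95% interval of cact was -0.08 to 0.07.

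**Figure D2:**
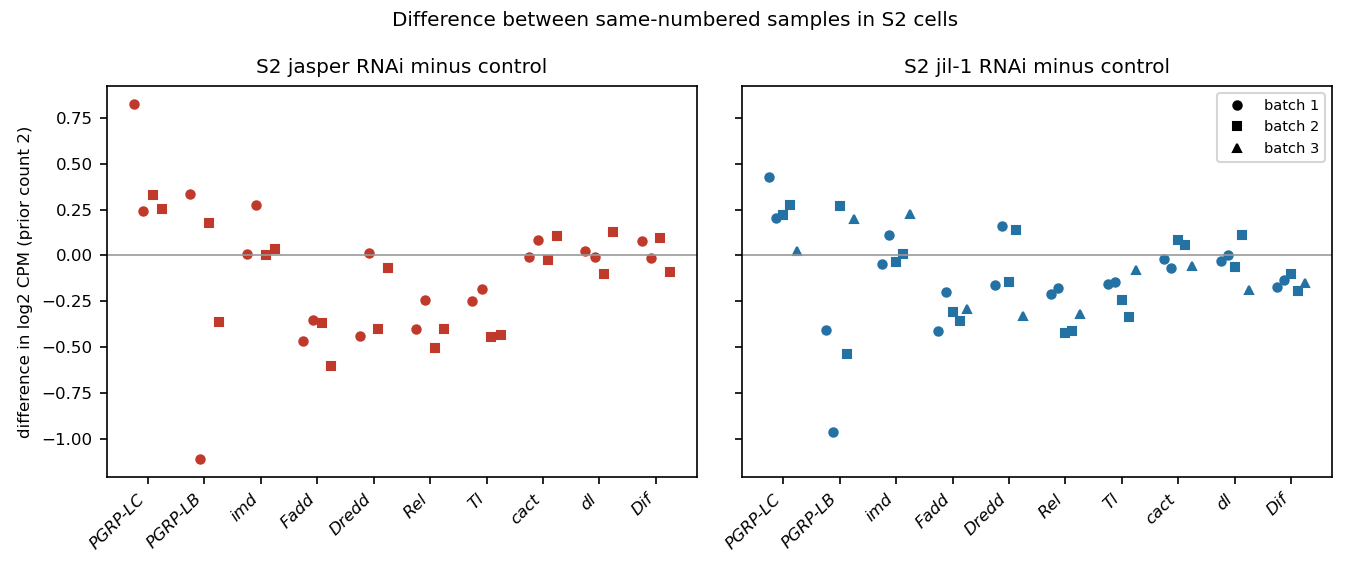
Difference in log2 CPM (vertical axis, prior count of 2) between same-numbered RNAi and control samples of S2 cells for the 10 genes, with the symbol giving the batch. Fadd, Rel and Tl are below 0 in all 4 jasper RNAi pairs and all 5 jil-1 RNAi pairs, PGRP-LC is above 0 in all pairs, and PGRP-LB scatters on both sides.

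Set directly against each other in S2 cells, the knock-downs differed for 1 member, where 2.8% of all genes were called higher, 3.58% lower and 6.38% in either direction. Dif was higher upon jasper RNAi than upon jil-1 RNAi by 0.18 ± 0.04 on the log2 scale (SE, adjusted p = 0.019), in 4 of 4 pairs, but no longer without jil-1 RNAi sample 4, jasper RNAi sample 5 or jasper RNAi sample 8 (adjusted p from 0.058 to 0.086). Fadd, Rel and Tl differed by -0.11, -0.08 and -0.12 between the knock-downs and did not pass the test (adjusted p = 0.42, 0.45 and 0.19). For Dredd, called in one knock-down and not in the other, the direct difference was -0.18 with a 95% interval of -0.34 to -0.02 and an adjusted p of 0.21, so the knock-downs were not shown to differ. PGRP-LC (0.18 ± 0.09), PGRP-LB (0.08 ± 0.21), imd (0.05 ± 0.06), cact (0.04 ± 0.04) and dl (0.03 ± 0.05) did not pass either. In this comparison 0 members had no overlap between groups, where 5.38% of all genes had none.

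In Kc cells, no member passed the test in either knock-down. With edgeR, 0 of 10 genes were called upon jasper RNAi, where 4.56% of 8847 genes were (1.76% higher and 2.79% lower), and 0 of 10 upon jil-1 RNAi, where 3.53% were (1.35% higher and 2.18% lower). At an unadjusted p under 0.05 there were 1 and 3 members, and DESeq2 called 0 in both. The spread between replicates was larger in Kc cells, with a biological coefficient of variation of 12.4%, against 7.43% in S2 cells.

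Fadd came closest in Kc cells. It had 25.6, 21.7, 24.9 and 21.3 CPM in jasper RNAi samples 1 to 4 and 19.9, 23.7, 22.0 and 19.2 CPM in jil-1 RNAi samples, against 27.2, 32.0, 29.1 and 23.6 CPM in control samples. It was below the same-numbered control in 4 of 4 pairs in both knock-downs, with control sample 4 overlapping the treated samples. The log2 differences were -0.25 ± 0.10 (SE, adjusted p = 0.15) upon jasper RNAi and -0.35 ± 0.10 (SE, adjusted p = 0.076) upon jil-1 RNAi. Without the libraries that had reads on l(2)gl they were -0.24 and -0.32 (adjusted p = 0.31 and 0.19).

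Rel had 146, 130.3, 158 and 164 CPM upon jasper RNAi and 140.1, 149, 131 and 134 CPM upon jil-1 RNAi in Kc cells, against 164, 164, 149.6 and 159 CPM in control samples. All jil-1 RNAi samples were below all control samples, but the log2 difference of -0.16 ± 0.08 did not pass the test (adjusted p = 0.26). Upon jasper RNAi it was -0.08 with a 95% interval of -0.24 to 0.07. Tl differed by -0.08 ± 0.16 upon jasper RNAi and by -0.18 ± 0.16 upon jil-1 RNAi, and its wide error left room for changes as large as those of S2 cells. Upon jasper RNAi the other differences were 0.20 ± 0.10 for cact, 0.19 ± 0.12 for dl, -0.15 ± 0.10 for Dif, 0.13 ± 0.08 for imd, 0.06 ± 0.09 for Dredd and 0.01 ± 0.21 for PGRP-LB. For jil-1 RNAi they were -0.08 ± 0.10 for cact, 0.30 ± 0.13 for dl, -0.15 ± 0.11 for Dif, 0.11 ± 0.09 for imd, -0.02 ± 0.09 for Dredd and -0.44 ± 0.23 for PGRP-LB. Each of these failed the test.

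PGRP-LC was barely detected in Kc cells. It had 1, 1, 5 and 9 reads in control libraries, in order of size, 2, 3, 9 and 10 reads upon jasper RNAi and 2, 5, 9 and 11 reads upon jil-1 RNAi. In CPM, the jil-1 RNAi samples had 1.06, 1.28, 0.557 and 0.723, all above the control samples at 0.439, 0.503, 0.111 and 0.119. From the summed reads the ratio was 2.45 upon jil-1 RNAi (95% interval 1.27 to 4.86) and 1.39 upon jasper RNAi (0.707 to 2.79), where the intervals cover counting error only. Of the jasper RNAi reads, 10 came from replicate 4, a library with reads on l(2)gl. The fitted difference upon jasper RNAi was 0.63 ± 0.63 on the log2 scale (SE, adjusted p = 0.59). Under other settings it ranged from -0.70 to 1.30. The fitted difference upon jil-1 RNAi was 1.48 ± 0.62 on the log2 scale and did not pass the test (adjusted p = 0.19). It was 1.67 ± 0.47 (adjusted p = 0.11) without the libraries with reads on l(2)gl, and it passed only when the fit held those 2 groups alone (1.60 ± 0.35, adjusted p = 0.036). PGRP-LC and Rel were the 2 members with no overlap upon jil-1 RNAi, where 9.56% of all genes had none, and upon jasper RNAi there were 0, where 7.98% of all genes had none. Between the Kc knock-downs 0 members were called by edgeR and by DESeq2, 1 had an unadjusted p under 0.05, and 0.588% of all genes were called (0.249% higher and 0.339% lower). PGRP-LB was the 1 member with no overlap between them, where 5.38% of all genes had none, and its log2 difference was 0.45 ± 0.23 (adjusted p = 0.36). The other differences ranged from -0.85 ± 0.58 for PGRP-LC to 0.28 ± 0.10 for cact (adjusted p = 0.51 and 0.21).

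**Figure D3:**
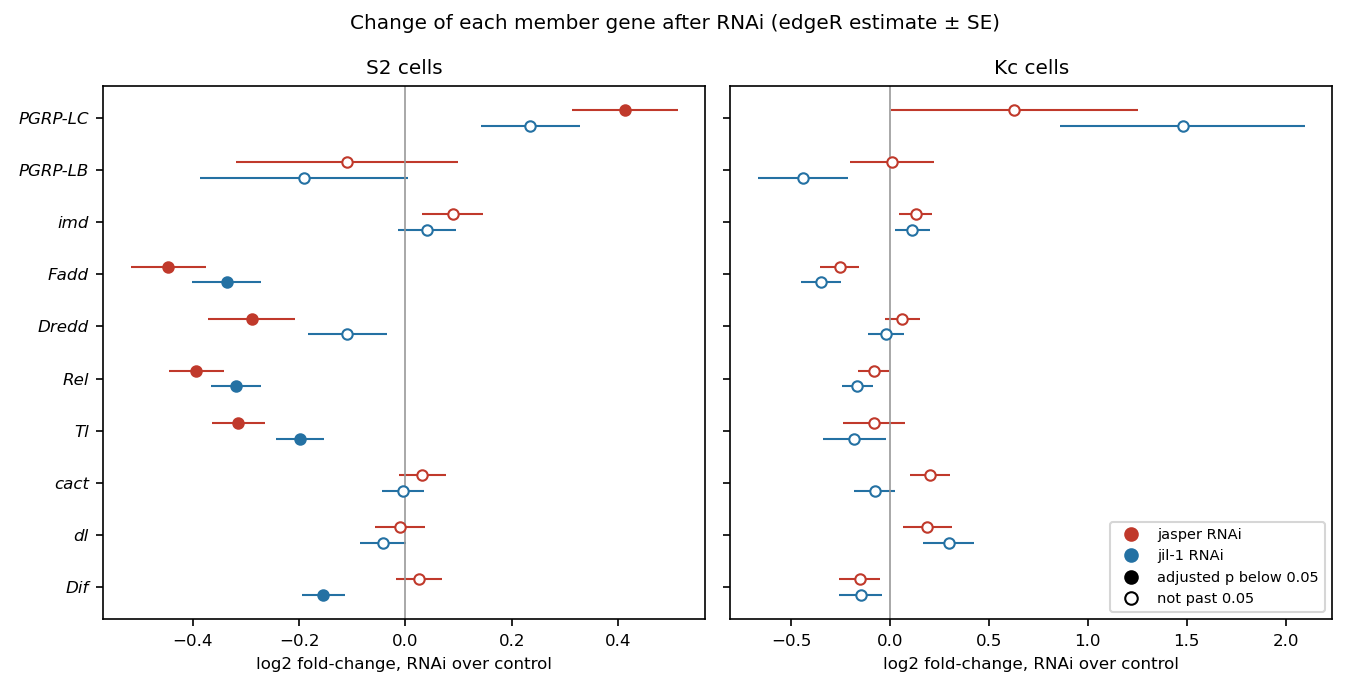
Log2 fold-change of each gene (horizontal axis, RNAi over control, edgeR estimate with SE as bars) in S2 cells on the left and Kc cells on the right, where the scale is wider. Filled points passed an adjusted p of 0.05. The filled points are PGRP-LC, Fadd, Dredd, Rel and Tl for jasper RNAi and Fadd, Rel, Tl and Dif for jil-1 RNAi, all in S2 cells.

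Whether the lines responded differently was tested as an interaction of line and RNAi. With edgeR no member passed, for jasper RNAi (0 of 10, 2 at an unadjusted p under 0.05, 4.32% of all genes called, 1.33% higher and 3% lower) or for jil-1 RNAi (0 of 10, 2 at an unadjusted p under 0.05, 7.93% of all genes called, 4.35% higher and 3.58% lower). DESeq2 called 1 and 0. Rel was nearest: its response to jasper RNAi was lower in S2 than in Kc cells by 0.32 ± 0.09 on the log2 scale (SE, adjusted p = 0.052), and it passed with DESeq2, with RLE scaling, with TMM factors from autosomal genes and without some single samples (adjusted p from 0.016 to 0.046), but not without the libraries with reads on l(2)gl (-0.27, adjusted p = 0.11). Dredd followed with -0.36 ± 0.12 (adjusted p = 0.082). For Fadd the responses differed by -0.20 (95% interval -0.42 to 0.02) upon jasper RNAi and by 0.02 (-0.20 to 0.24) upon jil-1 RNAi. The decrease of Fadd was therefore not shown to be limited to S2 cells. For jil-1 RNAi, PGRP-LC differed by -1.19 ± 0.51 and dl by -0.33 ± 0.13 (adjusted p = 0.16 and 0.11). The intervals of Tl were -0.57 to 0.08 for jasper RNAi and -0.34 to 0.32 for jil-1 RNAi. imd, PGRP-LB, cact and Dif had adjusted p-values of 0.41 or more in both. For jil-1 RNAi the split of all genes called, 344 higher and 283 lower, became 250 and 308 with RLE scaling and 221 and 329 with factors from autosomal genes.

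The lines themselves differed more than any knock-down. In control cells, 6 of the 10 genes were higher and 2 were lower in S2 than in Kc cells, in a comparison where 68.3% of 10211 genes were called, 30.1% as higher and 38.2% as lower, so most genes of any kind differed. The median log2 difference was 0.87 over the 10 genes and -0.10 over all genes. The same 8 genes had no overlap between lines, as did 58.2% of all genes.

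PGRP-LC differed most, with 13.5 to 21.2 CPM in S2 control samples and 0.111 to 0.503 CPM in Kc control samples. In summed reads these were 737 and 16, a ratio of 46.9 after scaling (95% interval 28.7 to 82.5, counting error only). PGRP-LB, which acts against the same ligand, went the other way, at 5.41 ± 1.36 CPM in S2 cells and 12.6 ± 4.20 CPM in Kc cells (SD, n = 5 and 4), with a log2 fold-change of -1.33 ± 0.25 (SE, adjusted p = 0.00038).

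The inner members of the Imd pathway differed between lines only in part. imd was 1.00 ± 0.11 higher on the log2 scale in S2 cells (SE, adjusted p = 5.3e-06) and Rel 0.76 ± 0.11 higher (SE, adjusted p = 4.3e-05). Fadd (0.07 ± 0.10) and Dredd (-0.19 ± 0.13) did not pass the test (adjusted p = 0.57 and 0.23).

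All Toll members differed. Tl had 313 to 336 CPM in S2 control samples and 48.4 to 74.0 CPM in Kc control samples, a log2 fold-change of 2.37 ± 0.11 (SE, adjusted p = 1.4e-09). The factors dl and Dif were higher in S2 cells by 1.89 ± 0.15 and 0.98 ± 0.11, and their inhibitor cact was lower, at 156 ± 7.25 CPM in S2 cells and 362 ± 43.5 CPM in Kc cells, with a log2 fold-change of -1.27 ± 0.08 (SE, adjusted p = 2.6e-08). The directions of these 8 genes and their calls were kept in all 17 alternative settings tried for this comparison.

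Because cact binds dl and Dif, their transcript levels per length were also set against each other within each sample, a ratio chosen after the values were seen and given without a test. RPKM, CPM per kilobase of exon, of cact divided by the sum for dl and Dif was 0.888, 0.838, 0.967, 0.970 and 0.976 in S2 control samples and 6.63, 5.59, 7.01 and 6.07 in Kc control samples. It was 0.855 to 1.01 upon jasper RNAi and 0.826 to 1.08 upon jil-1 RNAi in S2 cells, and 6.28 to 8.39 and 4.79 to 6.25 in Kc cells. The ratio separated the lines in all 26 samples, and RNAi and control samples of one line overlapped.

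**Figure D4:**
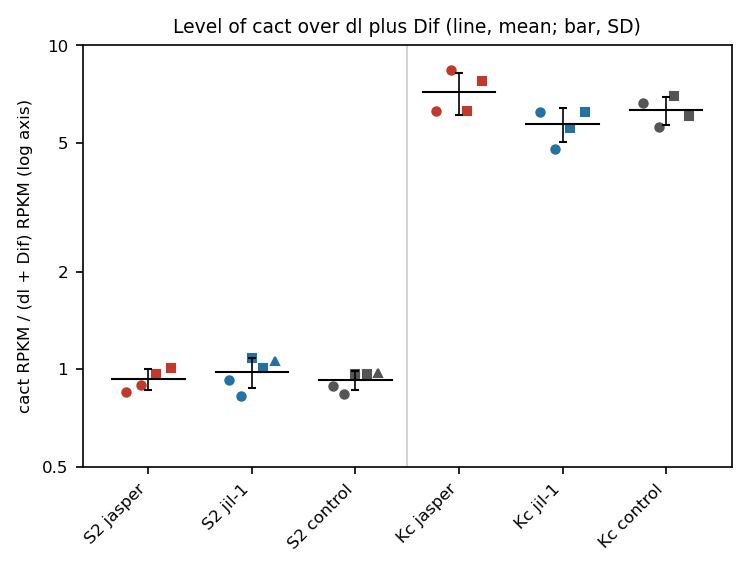
RPKM of cact divided by the summed RPKM of dl and Dif (log axis) in each sample, with group means as lines, SD as bars and the batch as symbol. All S2 samples lie between 0.826 and 1.08 and all Kc samples between 4.79 and 8.39.

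Per length, Rel was the most abundant of the 10 transcripts in S2 control cells at 79.9 ± 12.9 RPKM, followed by Tl at 61.5 ± 1.82, cact at 46.8 ± 2.18, imd at 42.3 ± 3.35 and dl at 32.1 ± 2.70 RPKM (SD, n = 5). Rel and Tl overlapped, as did cact, imd and dl along the order. Fadd, Dif and Dredd followed at 26.2, 18.4 and 16.1 RPKM, and PGRP-LC and PGRP-LB were last at 4.45 and 3.05 RPKM, where Dif and Dredd, and PGRP-LC and PGRP-LB, overlapped. In Kc control cells the order was led by cact at 109 ± 13.1 RPKM (SD, n = 4), above Rel at 45.4 ± 1.90 RPKM with no overlap. Fadd, imd, Dredd, Tl, Dif, dl and PGRP-LB followed, from 24.1 down to 7.12 RPKM, with each overlapping its neighbour. PGRP-LC was last at 0.0783 ± 0.0554 RPKM.

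**Figure D5:**
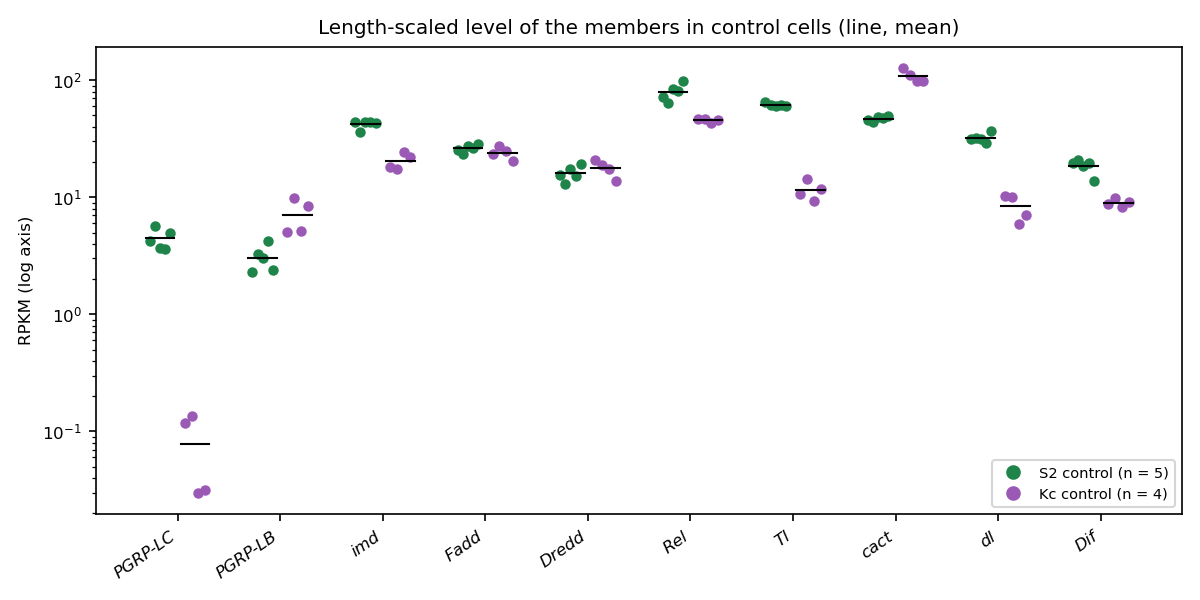
Levels of the 10 genes in RPKM (log axis) in the 5 S2 control samples and the 4 Kc control samples, with means as lines. PGRP-LC, Tl and dl are higher in S2 cells, PGRP-LB and cact are higher in Kc cells, and Fadd and Dredd overlap.

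Around these 10, 54 further genes of 7 lists were read: recognition proteins, the Imd core and its negative regulators, the JNK branch, the extracellular cascade upstream of Tl, the Toll core and other Toll receptors. In S2 cells 42 of them could be tested, and 1 rose and 8 fell upon jasper RNAi, while 0 rose and 6 fell upon jil-1 RNAi, with medians of -0.05 and -0.05 against 0.01 and 0.0034 over all genes. The corresponding shares of all genes called are those given above. DESeq2 called 1 higher and 8 lower upon jasper RNAi and 0 higher and 7 lower upon jil-1 RNAi, where 2 were higher at an unadjusted p under 0.05.

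In the cascade upstream of Tl, 2 of 7 tested genes fell in each S2 knock-down. grass, a serine protease of this cascade, had 38.5, 34.97, 31.1 and 25.1 CPM upon jasper RNAi and 33.6 to 43.2 CPM in jil-1 RNAi samples of S2 cells, against 45.2 to 64.5 CPM in control samples. Neither group overlapped the control. It fell by 0.84 ± 0.09 (SE, adjusted p = 4.8e-06) and by 0.62 ± 0.08 (SE, adjusted p = 4.5e-05) on the log2 scale. PGRP-SA, the circulating receptor for peptidoglycan of Gram-positive bacteria, fell by 0.46 ± 0.07 upon jasper RNAi and by 0.56 ± 0.07 upon jil-1 RNAi. The cytokine spz itself differed by -0.03 ± 0.05 and -0.06 ± 0.04 in S2 cells and did not pass the test.

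In the Imd core, key, the regulatory subunit of the IKK complex that phosphorylates Rel, fell by 0.37 ± 0.06 upon jasper RNAi and by 0.27 ± 0.05 upon jil-1 RNAi (SE, adjusted p = 0.00037 and 0.0022). Tollo, a receptor related to Tl, fell by 0.25 ± 0.05 and by 0.18 ± 0.05. grass, PGRP-SA, key and Tollo were the 4 listed genes lower in both S2 knock-downs. Upon jasper RNAi the deubiquitinase CYLD fell by 0.22 ± 0.06 and the kinase Gprk2, which contributes to Toll signalling, rose by 0.25 ± 0.06. Upon jil-1 RNAi, Tab2, the partner of the kinase Tak1, fell by 0.30 ± 0.08 and Pli, the fly Pellino, fell by 0.26 ± 0.08. Between the S2 knock-downs, 4 of these genes differed: GNBP3 (-0.99 ± 0.21) and IKKbeta (-0.14 ± 0.04) were lower and Pli (0.34 ± 0.09) and Gprk2 (0.23 ± 0.06) higher upon jasper RNAi than upon jil-1 RNAi.

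In Kc cells 43 of the 54 genes could be tested. Upon jasper RNAi dnr1, a RING protein that restrains Dredd, rose by 0.57 ± 0.13 (SE, adjusted p = 0.028). The call of dnr1 was lost without the libraries with reads on l(2)gl (0.57 ± 0.15, adjusted p = 0.090). edgeR and DESeq2 called 0 as lower, and 6 were lower at an unadjusted p under 0.05. Upon jil-1 RNAi, spz fell by 0.82 ± 0.12, grass by 0.74 ± 0.12 and key by 0.32 ± 0.07 (SE, adjusted p = 0.0033, 0.0077 and 0.036). Without those libraries spz and grass passed (adjusted p = 0.027 and 0.034) and key did not (adjusted p = 0.094). spz had 53.5, 58.4, 38.3 and 40.1 CPM upon jil-1 RNAi, against 84.9, 128, 61.4 and 72.9 CPM in Kc control samples, with no overlap. It was also 0.57 ± 0.12 higher upon jasper RNAi than upon jil-1 RNAi in Kc cells (adjusted p = 0.048), a call that was lost without those libraries (0.51 ± 0.15, adjusted p = 0.27). The response of spz to jil-1 RNAi differed between lines by 0.77 ± 0.12 (SE, adjusted p = 0.00043), that of the AP-1 subunit kay by -0.48 ± 0.14 (adjusted p = 0.033), and the response of grass to jasper RNAi by -0.59 ± 0.14 (adjusted p = 0.018). The last did not pass without those libraries (-0.52 ± 0.15, adjusted p = 0.052), while spz and kay did.

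Between the lines, 19 of 46 tested pathway genes were higher and 15 lower in S2 than in Kc control cells, where 30.1% of all genes were higher and 38.2% lower. The recognition proteins split: PGRP-LE, the intracellular sensor of the Imd pathway, had 1.92 to 4.43 CPM in S2 control samples and 66.2 to 83.5 CPM in Kc control samples, a log2 fold-change of -4.53 ± 0.14 (SE, adjusted p = 3.3e-11). PGRP-LA was 3.76 ± 0.44 higher in S2 cells, at 7.90 ± 1.95 CPM in S2 cells and 0.476 ± 0.476 CPM in Kc cells. The line with little PGRP-LC thus had the higher PGRP-LE, and neither sensor was at the same level in both lines. Upstream of Tl, spz was 2.21 ± 0.18 higher in S2 cells, and the protease modSP was lower by 6.30 ± 0.27, at 0.778 ± 0.420 CPM in S2 cells and 63.7 ± 17.96 CPM in Kc cells. The JNK kinase hep was 2.33 ± 0.08 higher in S2 cells, and the Imd inhibitors dnr1 and pirk were lower by 2.27 ± 0.21 and 2.00 ± 0.44.

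Of 17 antimicrobial peptide genes, the targets of both pathways, 5 passed the filter on low counts in S2 cells and 1 in Kc cells. edgeR and DESeq2 called 0 of them against control in either knock-down of either line, and at an unadjusted p under 0.05 there was 1 in S2 jasper RNAi and 1 in Kc jil-1 RNAi, both lower. In control cells CecA1, CecA2 and CecB were 4.46 ± 0.44, 4.61 ± 0.54 and 5.58 ± 0.58 higher on the log2 scale in S2 than in Kc cells, but each stayed under 5.3 CPM, and AttD was lower by 1.499 ± 0.32. The 7 peptides of this comparison had reads in every control sample of at least 1 line. A peptide nearly silent in Kc cells could thus enter only through S2 cells, which fixed its direction.

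The hemocyte markers of the check moved with the knock-downs in both directions, and their part in the member results was not tested. In S2 cells 2 of 8 rose and 1 fell upon jasper RNAi and 2 rose and 3 fell upon jil-1 RNAi. In Kc cells 1 fell upon jasper RNAi (Hml, a call lost without the libraries with reads on l(2)gl, adjusted p = 0.058) and 1 rose and 2 fell upon jil-1 RNAi. Between control lines 5 of 8 were higher and 1 lower in S2 cells, with Pxn 5.60 ± 0.56 higher and Hml lower by 6.06 ± 0.24 on the log2 scale. Their summed level was 5657 to 7121 CPM upon jasper RNAi and 4816 to 6974 CPM upon jil-1 RNAi of S2 cells, against 2459 to 6140 CPM in control samples. In Kc cells it was 1790 to 2288 and 1466 to 2055 CPM, against 2344 to 2899 CPM. Markers of crystal cells stayed under 1.5 CPM in sum in all samples. Genes of neurons, glia, muscle and fat body summed to 21.7 to 44.5 CPM. Of these, 2 could be tested in Kc cells, and 1 was called higher upon jil-1 RNAi. It was the neuron gene elav (0.52, adjusted p = 0.024), a call lost without the libraries with reads on l(2)gl (adjusted p = 0.10).

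The genes whose levels varied most like those of the called members were found by Pearson's r of log2 CPM over 26 samples after the mean of each batch within its line was subtracted, among 7909 genes, with no test because the RNAi groups and libraries are shared by all genes. CG42846 (r = 0.92) and Gapdh2 (r = 0.89) were nearest to Fadd, Srg3 (r = 0.87) and Zip99C (r = 0.86) to Rel, and Hipk (r = 0.83) and chif (r = 0.80) to PGRP-LC. CG15740 (r = 0.78) and Spn88Ea (r = 0.72) were nearest to Tl, eIF3g1 (r = 0.76) and RpS14a (r = 0.72) to Dredd, and pasha (r = 0.74) and Nup358 (r = 0.74) to Dif. Of these nearest genes, eIF3g1, RpS14a, Gapdh2 and CG15740 are X-linked, as Dredd is. Among the 10 genes themselves, Fadd and Rel were the closest pair (r = 0.77), followed by Rel and Tl (r = 0.63).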

How the data were processed

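RNA was depleted of rRNA and sequenced from strand-specific libraries, and the authors aligned reads with STAR version 2.6.0 to release 6 of the genome (BDGP6), keeping reads with a single location. The deposited files hold raw read counts per gene from STAR, of which the column for the strand of the gene was used. Rows that name no gene (50.6% to 72.4% of reads) were left out of library sizes and tests. Symbols and exon lengths came from an Ensembl 115 annotation of the same genome, which matched 17215 of 17489 genes. Gene 18w of the other Toll receptors, the peptide Drs and the markers PPO1, vas and nos were not analysed here.

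The members and gene lists were chosen with earlier results of these data known. Genes with more than 0 reads in every sample of a line were tested with edgeR 4.0.16 (TMM scaling, quasi-likelihood F-test, batch as a block, the 3 groups of a line in 1 model). The interaction of line and RNAi used all 26 samples with batch nested in line. Control lines were compared without a batch term, over genes with reads in every control sample of at least 1 line. A gene nearly silent in a line could thus enter through the other line alone, which then set its direction. P-values were adjusted over all genes tested at 0.05. The SE was derived from the estimate and its F statistic (estimate over root F). The 95% intervals of log2 differences took the normal quantile for this SE, without allowance for the small number of samples. They are therefore narrower than the test implies. Of this, the batch block and the filter at 0 reads follow the study's methods, which quantified genes with RSEM 1.3.0 and tested them with DESeq2. The models of 3 groups, of both lines and of control cells were set here. DESeq2 (1.42.0) on the STAR counts was an alternative, as were other scalings and filters, counts without regard to strand, other blocks and leaving out samples. In the text, all 10 members are accounted for in every comparison, up to 6 other pathway genes per RNAi contrast by size of the change, and up to 3 higher and 3 lower per list between lines. CPM used TMM factors over 26 samples, and differences between pairs a prior count of 2. Exons of imd, Dredd, cact and Dif overlap those of a gene on the opposite strand by 0.703% to 4.43% of their length.

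Within a group no 2 of 44 sample pairs agreed within sampling noise (chi-square over degrees of freedom of 3.48 or more), so every library was counted as its own sample. Samples of one number share a batch by the labels. Their deviations from the group means correlated at 0.135 to 0.641 in S2 (median 0.190) and 0.222 to 0.491 in Kc cells (median 0.312). For samples of other numbers in the same batch this was 0.0754 to 0.421 (median 0.225) and 0.178 to 0.521 (median 0.311). After batch means were removed, same-numbered samples correlated at -0.116 to 0.141 and -0.145 to 0.178. With 2 samples per group and batch, these values mirror those of other-numbered samples, so they cannot show a pairing beyond batch. Scripts were tested on simulated data.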

Additional observations from a re-analysis of the deposited data

Results flagged for a closer look

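In 60 groups of 4 or 5 samples, 7 held a sample far from the others in the normalised count of a member, where chance gives about 1 in 20 groups. In the third S2 batch, jil-1 RNAi sample 11 had 275 CPM of Rel, against 199 to 221 CPM in the other jil-1 RNAi samples, and 70.9 CPM of Dif, against 97.5 to 107 CPM. The control sample of that batch was likewise highest for Rel (343 CPM) and lowest for Dif (78.7 CPM), and the within-batch differences of -0.32 and -0.15 were within the range of the other batches. For imd, jasper RNAi sample 9 had 68.8 CPM, against 66.8 to 67.1 CPM in its group, and S2 control sample 5 had 55.2 CPM, against 65.6 to 67.0 CPM. Tl had 336 CPM in S2 control sample 4, against 313 to 318 CPM in the other controls. The level of dl was 189.8 CPM in S2 jasper RNAi sample 8, against 203 to 205 CPM, and PGRP-LB had 7.23 CPM in Kc jil-1 RNAi sample 4, the shallowest library with 20 reads on this gene, against 9.40 to 9.69 CPM. On the strand opposite to the genes, 0 of 40 comparisons of RNAi with control were flagged. For imd, though, this strand had 11.9 to 14.5 CPM in S2 jasper RNAi samples and 15.6 to 21.0 CPM in S2 control samples, without overlap. S2 jil-1 RNAi samples had 12.1 to 17.3 CPM and overlapped the control. imd was singled out from the 40 comparisons, and the share of all genes without overlap on this strand is not given here. The genes Dp1 and GstE9 lie across imd on that strand, and GstE9 shares 40 exon bases with it.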

How the results depend on the processing

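Of 1837 values of single members under other settings, 1811 stayed on their side of the threshold, 18 lost it and 8 gained it. The direction was kept in 1756 values and turned in 81, all of members that had not passed the test, and 0 of the 81 passed it. Fadd, Rel and Tl upon jasper RNAi and Fadd upon jil-1 RNAi in S2 cells passed in all 20 settings each. Without the batch block members called in S2 cells were 3 (jasper), 1 (jil-1) and 0 (jasper against jil-1), and all genes called were 645, 551 and 134, with 58, 57 and 6 in Kc cells and 91 and 78 in the jasper and jil-1 interactions. Without a filter, Dif upon jil-1 RNAi in S2 cells lost its call (-0.15, adjusted p = 0.062), and genes called were 739, 589 and 408 in Kc cells, 932 for S2 jasper against jil-1 (0 members) and 606 for the jasper interaction. DESeq2 called 709, 625 and 318 genes in Kc cells. With only the 2 groups compared, genes were 159 and 20 in Kc jasper against control and against jil-1, 318 in S2 jasper against jil-1 (0 members), and 1 member (PGRP-LC) passed in Kc jil-1. The jasper interaction had 1 member (Rel) with DESeq2, RLE or autosomal factors. Without S2 jasper samples 5 and 9, the samples with more sense than opposite JASPer reads, 1014 genes passed, and without 4 and 8, 1079 genes and 3 members. Without Kc jasper samples 2 and 4, 178 genes passed, and without 1 and 3, 1190 genes and 1 member (cact, 0.37, adjusted p = 0.027). Without the Kc libraries with reads on l(2)gl, a choice made after seeing the data, 106, 125 and 0 genes passed. The replicate block in place of batch changed no member's call and moved 1 count by over 1.5 times, Kc jasper against jil-1, to 83 from 52 genes. Leaving out 1 sample at a time gave 1144 to 1601 genes and 4 to 5 members (S2 jasper), 1216 to 1715 and 4 (S2 jil-1), 308 to 501 and 0 to 1 (S2 jasper against jil-1), 138 to 461, 133 to 230 and 11 to 82 genes in Kc cells, 212 to 428 genes and 0 to 1 members (jasper interaction) and 348 to 699 genes (jil-1 interaction). The causes were not tested. PGRP-LC in Kc cells, at 1 to 11 reads, and PGRP-LB, at 11 to 113 reads in S2 cells, rest on few reads. The filter of edgeR's filterByExpr left PGRP-LC untested in Kc cells.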
